A study of Rattus norvegicus with 15 samples.

Results

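The genes described here encode proteins that hepatocytes secrete into plasma, with their inhibitors and relatives. They were chosen by symbol: every probe whose platform annotation gave exactly 1 symbol, beginning with Serpin, Itih, Mbl, Mug or Kng or equal to 1 of a stated list of plasma, complement and coagulation genes. This gave 36 genes, each with 1 probe, out of 3400 genes named on the array. By role they fell into 13 positive acute phase genes (A2m, Apcs, C3, C4b, C9, Cp, Crp, Hpx, Itih3, Itih4, Orm1, Serpina1 and Serpina3n), 7 constitutive plasma protein genes (Ahsg, Alb, Gc, Serpina4, Serpina7, Tf and Ttr) and 7 coagulation and fibrinolysis genes (F10, F2, Plg, Proc, Serpina10, Serpina5 and Serpind1). Mbl2, F3 and 7 other members (Kng2l1, Mug1l1, Serpina3m, Serpinb2, Serpinh1, Serpini1 and Serpini2) completed the set. Hp, Rbp4, Mug1 and Kng1 matched no probe by symbol and were not analysed here. The role lists held 20 acute phase, 15 constitutive and 14 coagulation genes, of which only these 13, 7 and 7 were measured.

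Total RNA of 15 liver samples from male rats was hybridised, 1 array a sample, in a study titled as one of hepatocellular carcinoma formation. The 5 control samples were normal liver of rats that had eaten a basal diet for 70 weeks, of the strain Fischer344 (written Fischer for control sample 1). The other 10 samples came from Fischer344 rats kept for 70 weeks on a choline-deficient, L-amino acid-defined diet, 5 of them hepatocellular carcinoma and 5 the cirrhotic, noncancerous liver around such tumours. The age of the rats is not given in the sources used here, and no label says that the samples of a group were separate animals, so every p-value here measures only the spread between these samples.

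Albumin, transthyretin and transferrin are made by healthy hepatocytes at a steady and high rate. In inflammation, interleukin-6 acting through STAT3, and interleukin-1 acting through NF-kappaB and C/EBP factors, raise a second set of plasma proteins in the liver, the positive acute phase proteins, while synthesis of some carriers such as albumin and transthyretin goes down. In the rat, alpha-2-macroglobulin (A2m) is a strong acute phase protein that is scarce in healthy adults, whereas C-reactive protein (Crp) circulates in healthy rats and changes little.

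The promoters of 3 members are shown because these genes carry the patterns described further on: Itih3 was the only member with a pair of groups that did not overlap, Serpina7 had the largest difference, and Alb had the widest spread between samples. Each sequence is the RefSeq promoter of the build GRCr8, from 250 bases before to 50 bases after the transcription start, read 5′ to 3′ on the strand of the gene. Capitals mark matches, on either strand, to the letters of 5 motifs: TTNNGNAAT for C/EBP, TTCNNNGAA for the STAT factors, CTGGGAA for the type 2 interleukin-6 response element, GTTAAT for HNF1 and TATAAA for the TATA box. All 3 promoters lie on the minus strand, Itih3 at chr16:6123325-6123624, Alb at chr14:17906930-17907229 and Serpina7 at chrX:107457632-107457931.
Itih3: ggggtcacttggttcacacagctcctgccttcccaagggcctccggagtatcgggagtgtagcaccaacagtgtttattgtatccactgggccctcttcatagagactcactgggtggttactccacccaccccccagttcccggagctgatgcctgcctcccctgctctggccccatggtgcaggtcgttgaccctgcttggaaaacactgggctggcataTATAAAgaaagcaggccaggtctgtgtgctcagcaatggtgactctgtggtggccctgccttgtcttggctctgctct
Alb: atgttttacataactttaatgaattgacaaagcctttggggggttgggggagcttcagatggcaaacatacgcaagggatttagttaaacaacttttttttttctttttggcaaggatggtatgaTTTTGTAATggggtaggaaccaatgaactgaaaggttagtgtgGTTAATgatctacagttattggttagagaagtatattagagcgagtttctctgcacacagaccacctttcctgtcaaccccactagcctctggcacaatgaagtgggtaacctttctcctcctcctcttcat
Serpina7: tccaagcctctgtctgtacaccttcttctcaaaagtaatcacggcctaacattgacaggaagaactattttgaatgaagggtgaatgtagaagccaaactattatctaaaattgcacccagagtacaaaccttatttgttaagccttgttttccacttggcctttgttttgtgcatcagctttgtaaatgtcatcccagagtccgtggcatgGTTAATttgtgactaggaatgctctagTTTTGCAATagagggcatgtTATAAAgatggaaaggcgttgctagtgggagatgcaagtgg
In these windows Itih3 held only the TATA box match, Alb held 1 C/EBP and 1 HNF1 match, and Serpina7 held 1 match each to the C/EBP, HNF1 and TATA motifs.

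A promoter was given for 31 of the 36 members, 11 of them acute phase, 7 constitutive and 5 coagulation genes. The C/EBP letters were found in 4 of 11 acute phase promoters and 4 of 7 constitutive ones, and in 12.3% of all 33469 rat promoters of the same length. The letters of HNF1, a factor that hepatocytes use for albumin, were found in 0 of 11 acute phase promoters, 4 of 7 constitutive promoters (Alb, Gc, Serpina4 and Serpina7) and 3 of 5 coagulation promoters, against 7.45% of all. The STAT letters stood in 2 of 11 acute phase promoters (Serpina3n and Itih4) and in none of the 7 constitutive ones, against 8.87% of all. CTGGGAA was present in 5 of 11 and 4 of 7, against 11.3%. The letters TATAAA, counted anywhere in the window, were found in 5 of 11 acute phase and 2 of 7 constitutive promoters, against 14.2%. The constitutive count includes the match of Serpina7 that lies after the transcription start. Motifs were searched one by one, so matches could share letters. A match describes letters only and shows no binding.

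Each value below is the log2 of a probe's ratio to its own median over the 15 arrays, after quantile normalization. That step changed the ratios of each array differently, so 0 marks the middle sample of a gene only roughly. The values are not exact ratios to that sample: for Serpina1 in cirrhotic sample 1 a deposited ratio of 25.5 became a log2 value of 3.39. The values give no level of one gene against another. They are listed for samples 1 to 5 of each group in that order. Differences are group means subtracted on this scale and tested with limma over all 3757 probes, with adjustment by the Benjamini-Hochberg method and a threshold of 0.05.

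No member passed that threshold in any of the 3 comparisons, which share samples with one another. Between cirrhotic and control liver 0 of 3757 probes passed (0%), and 9.64% had an unadjusted p under 0.05, among them 2 members, Serpina7 and Serpinh1. In 1.65% of probes all 5 values of one group lay beyond all 5 of the other, and no member was among them. Between carcinoma and control liver again 0 of 3757 probes passed (0%), 7.4% had an unadjusted p under 0.05, with no member among them, and 1.89% did not overlap, with 1 member, Itih3. Between carcinoma and cirrhotic liver 0 of 3757 probes passed (0%), 13.2% had an unadjusted p under 0.05, with 5 members (Serpina7, A2m, Ttr, Itih3 and Hpx, 13.9% of the 36), and 2.71% did not overlap, with no member. The members' counts thus stood near or below the share over all probes. The smallest adjusted p among the members was 0.413 for cirrhotic against control liver, 0.656 for carcinoma against control and 0.25 for carcinoma against cirrhotic liver.

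The group differences of all probes drifted along the array's probe numbering. Among the 311 probes numbered from 3600 to 3999 the median difference was -1.0 for cirrhotic minus control liver, -0.44 for carcinoma minus control and 0.53 for carcinoma minus cirrhotic liver. Among the 390 probes numbered from 1200 to 1599 these medians were 0.76, 0.00 and -0.79. Orm1, A2m, Ttr, Kng2l1 and Hpx lie in the first block, and Mbl2, Ahsg, Serpina7, Serpinh1, Crp and F3 in the second. Whether the numbering follows the layout of the array is not given in the sources used here, and the cause of the drift was not tested. The differences were therefore also computed after the running median over 101 probes along the numbering was subtracted from each array. This trend-corrected difference is given beside a difference that it moved by over 1.5 times or turned in sign, and beside some others. With that correction the members under an unadjusted p of 0.05 numbered 0, 2 (Serpini1 and A2m) and 1 (A2m) in the same order of comparisons, against 4.02%, 8.49% and 9.82% of all probes, and 0 probes passed the adjusted threshold.

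**Figure D1:**
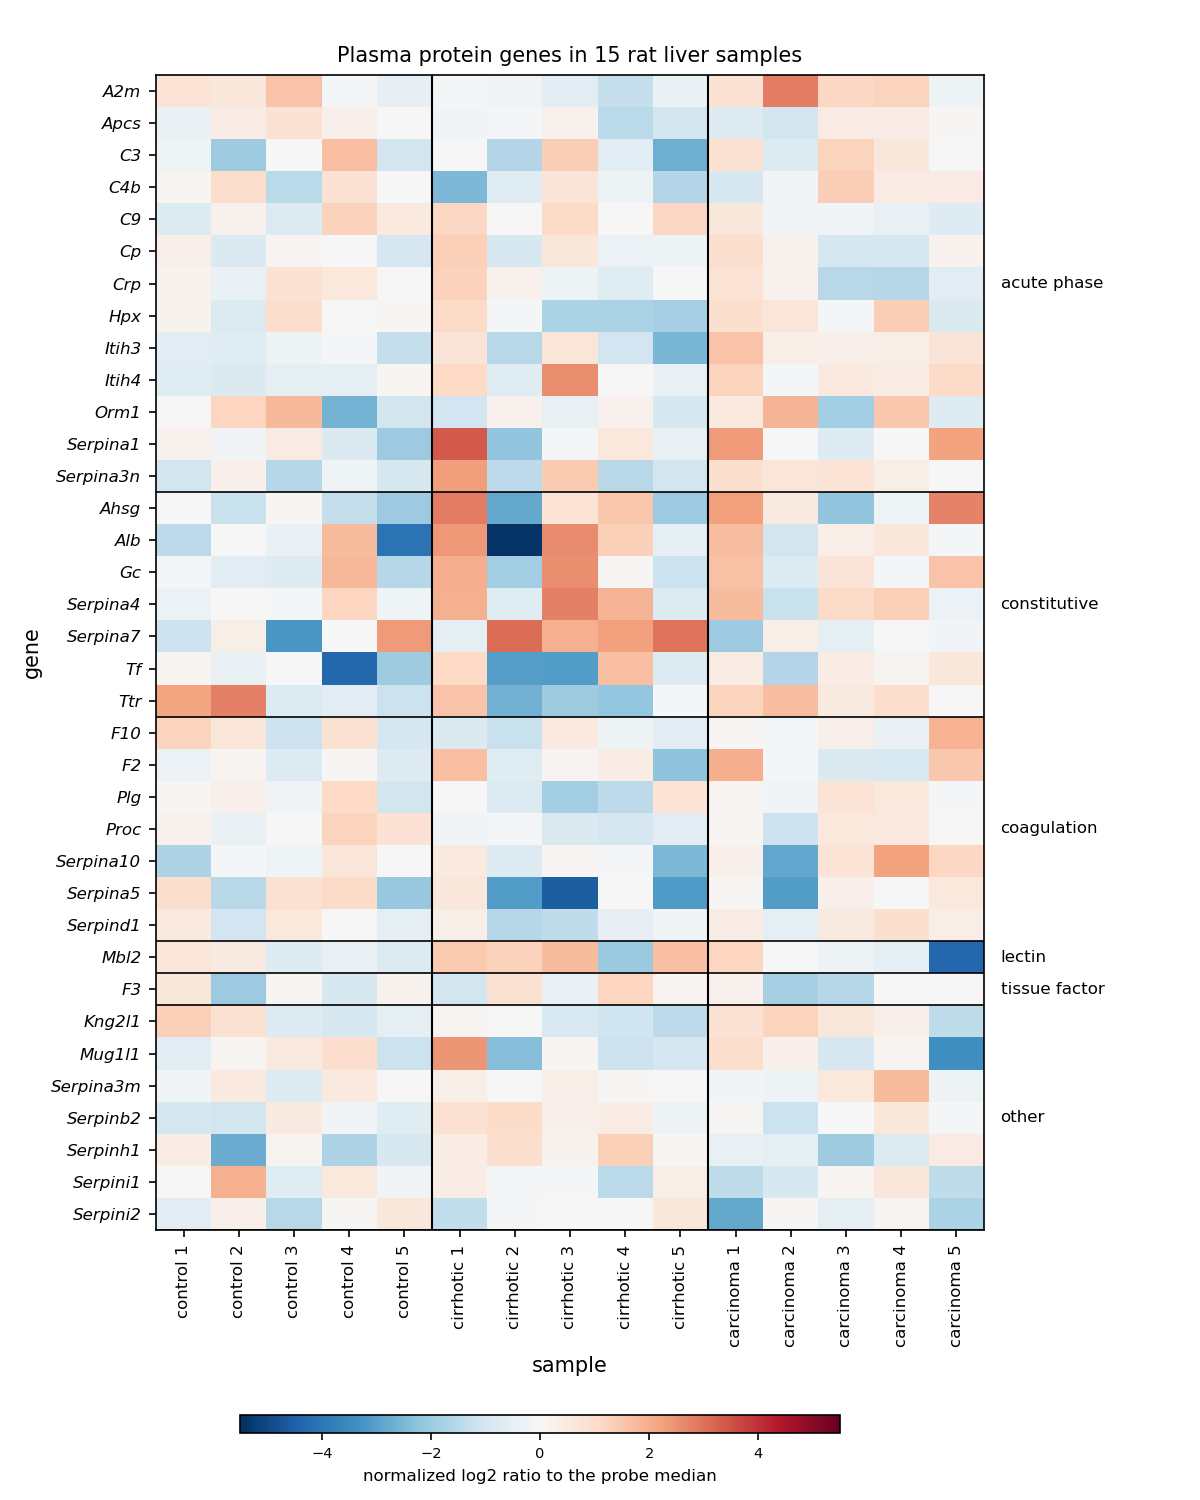
Normalized log2 ratio to the probe median (colour, blue below 0 and red above 0) of the 36 genes (rows, ordered by role) in the 15 samples (columns, split by black lines into control, cirrhotic and carcinoma samples). Albumin in cirrhotic sample 2, at -5.40, is the deepest blue cell, and the constitutive rows carry more strong colours than the acute phase rows.

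Among the acute phase genes, the values in carcinoma tended to lie above those of cirrhotic liver, and no difference passed the adjusted threshold. Of the 13 genes, 10 had a higher mean in carcinoma than in cirrhotic liver, with a median difference of 0.56 (0.34 without cirrhotic sample 5), where 49.3% of all probes were higher and the median over all probes was -0.02. The trend-corrected median was 0.19, with 9 of 13 higher. Carcinoma against control gave a median of 0.40 with 10 of 13 higher (trend-corrected 0.65, 10 of 13), beside 50.1% of all probes and a median of 0.00. That median was 0.25 without carcinoma sample 2 and 0.78 without control sample 3. For cirrhotic against control liver the median was -0.16 with 5 of 13 higher, and after trend correction 0.11 with 8 of 13 higher, so its direction turned, as it did without cirrhotic sample 5 (0.12).

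A2m, the protease inhibitor alpha-2-macroglobulin, had its highest ratio in carcinoma. Its log2 ratios were 0.77, 0.61, 1.55, -0.05 and -0.46 in control samples, -0.06, -0.19, -0.56, -1.31 and -0.36 in cirrhotic samples, and 0.78, 2.80, 1.14, 1.24 and -0.26 in carcinoma samples. Carcinoma samples 1 to 4 lay above all cirrhotic samples, and carcinoma sample 5 lay among them. The mean was 1.14 ± 1.10 in carcinoma, -0.50 ± 0.49 in cirrhotic liver and 0.48 ± 0.78 in control liver (SD, n = 5 each). Carcinoma exceeded cirrhotic liver by 1.64 (3.11-fold, 95% interval 0.39 to 2.89, adjusted p = 0.262), and by 1.14 after trend correction (0.10 to 2.18). It exceeded control liver by 0.66 (-0.59 to 1.91), by 0.25 without carcinoma sample 2, and by 1.18 after trend correction (0.14 to 2.22). The difference of -0.98 between cirrhotic and control liver became 0.04 with the correction. A2m was the one member with an interval above 0 against both other tissues once the drift was subtracted, with adjusted p-values of 0.571 against control and 0.481 against cirrhotic liver in that fit.

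Itih3, a heavy chain of the inter-alpha-trypsin inhibitor family that binds hyaluronan, separated carcinoma from control liver. In the order given, its log2 ratios were -0.62, -0.67, -0.29, -0.05 and -1.31 in control samples, 0.69, -1.53, 0.66, -1.06 and -2.51 in cirrhotic samples, and 1.55, 0.37, 0.26, 0.32 and 0.71 in carcinoma samples. All 5 carcinoma samples lay above all 5 control samples, while the cirrhotic samples spread on both sides of them. Carcinoma exceeded control by 1.23 (2.35-fold, -0.02 to 2.49, adjusted p = 0.656), and the groups were also separate after trend correction, with a difference of 1.14 (-0.03 to 2.31). Carcinoma exceeded cirrhotic liver by 1.40 (0.14 to 2.65, adjusted p = 0.332), or 0.93 with the correction (-0.24 to 2.10). Leaving out 1 sample at a time moved the difference from control between 0.99 and 1.40.

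Itih4, a related protein and an acute phase reactant, was above control in the means of both diet groups. Ratios of Itih4 were -0.67, -0.78, -0.50, -0.49 and 0.11 in control samples, 1.11, -0.68, 2.55, -0.01 and -0.37 in cirrhotic samples, and 1.22, -0.12, 0.55, 0.41 and 1.07 in carcinoma samples. The groups overlapped, and cirrhotic sample 3 was the highest of all. The difference was 1.09 for carcinoma minus control (-0.07 to 2.26), 0.99 for cirrhotic minus control (-0.18 to 2.15) and 0.11 for carcinoma minus cirrhotic liver, which turned to -0.21 with trend correction. Without cirrhotic sample 3 the cirrhotic difference was 0.49.

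Hpx, hemopexin, which binds free heme, was lowest in 3 of the cirrhotic samples. Hpx ratios stood at 0.21, -0.76, 0.95, 0.00 and 0.10 in control samples, 1.04, -0.06, -1.76, -1.74 and -1.81 in cirrhotic samples, and 0.87, 0.68, -0.06, 1.37 and -0.80 in carcinoma samples. Cirrhotic samples 3, 4 and 5 lay below every other sample, while cirrhotic sample 1 was the second highest of the 15. The difference between carcinoma and cirrhotic liver was 1.28 (0.04 to 2.51, adjusted p = 0.363), and 0.65 after trend correction (-0.39 to 1.69). Cirrhotic minus control gave -0.97, which shrank to -0.12 with the correction.

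Serpina1, alpha-1-antitrypsin, had the fourth largest excess of carcinoma over control, at 1.22 (-0.43 to 2.88, adjusted p = 0.738). The samples gave 0.22, -0.17, 0.45, -0.80 and -2.0 in control samples, 3.39, -2.16, -0.09, 0.59 and -0.40 in cirrhotic samples, and 2.34, 0.03, -0.72, -0.04 and 2.21 in carcinoma samples. Carcinoma samples 1 and 5 stood high and the other carcinoma samples lay within the control range, and the highest value was in cirrhotic sample 1. The excess was 0.81 without carcinoma sample 1. Serpina3n, a relative of alpha-1-antichymotrypsin, had carcinoma values from -0.03 to 0.87 against control values from -1.56 to 0.28, a difference of 1.20 (-0.14 to 2.54). The rat genome holds several close copies of Serpina3, and whether this probe read more than 1 of them was not tested.

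Crp, C-reactive protein, had the second lowest difference of carcinoma from control among the members, at -0.78 (-1.88 to 0.32), or -0.52 without carcinoma sample 3. Ratios for Crp were 0.18, -0.36, 0.80, 0.60 and 0.02 in control samples, 1.26, 0.24, -0.29, -0.65 and 0.00 in cirrhotic samples, and 0.75, 0.25, -1.53, -1.55 and -0.59 in carcinoma samples. Carcinoma samples 3 and 4 were low and carcinoma sample 1 was near the top of the control range. Its carcinoma minus cirrhotic difference of -0.65 was -0.06 after trend correction. For C9, a part of the membrane attack complex, that difference was -0.82, or -0.62 with the correction.

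Orm1, alpha-1-acid glycoprotein, Cp, the copper carrier ceruloplasmin, and C3, the central complement component, showed no order of the tissues beyond their spread. Orm1 gave -0.03, 1.18, 1.80, -2.60 and -1.01 in control samples, -1.04, 0.24, -0.41, 0.23 and -0.90 in cirrhotic samples, and 0.53, 1.89, -1.86, 1.48 and -0.73 in carcinoma samples. Its control samples alone ranged from -2.60 to 1.80, wider than any difference between means, and the cirrhotic minus control difference was -0.25, or 0.71 after trend correction. Cp gave 0.30, -0.79, 0.16, 0.00 and -0.94 in control samples, 1.30, -0.86, 0.64, -0.33 and -0.26 in cirrhotic samples, and 0.89, 0.23, -0.95, -0.95 and 0.18 in carcinoma samples. All 3 groups overlapped, with differences from -0.22 to 0.35, and trend correction turned the sign of 2 of the 3 and left them between -0.10 and 0.11. For C3 the ratios were -0.25, -1.97, -0.03, 1.65 and -1.0 in control samples, 0.04, -1.61, 1.36, -0.62 and -2.69 in cirrhotic samples, and 0.83, -0.77, 1.24, 0.63 and 0.01 in carcinoma samples. Cirrhotic sample 5 was the lowest and control sample 4 the highest. Carcinoma minus cirrhotic liver was 1.09 (-0.39 to 2.58), 0.54 with the correction, 0.60 without cirrhotic sample 5 and 1.65 without cirrhotic sample 3. Apcs, serum amyloid P, and C4b, complement component 4, ranged over all samples from -1.47 to 0.78 and from -2.46 to 1.34. The value of C4b in cirrhotic sample 1 was at the lower limit of the deposited ratios.

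**Figure D2:**
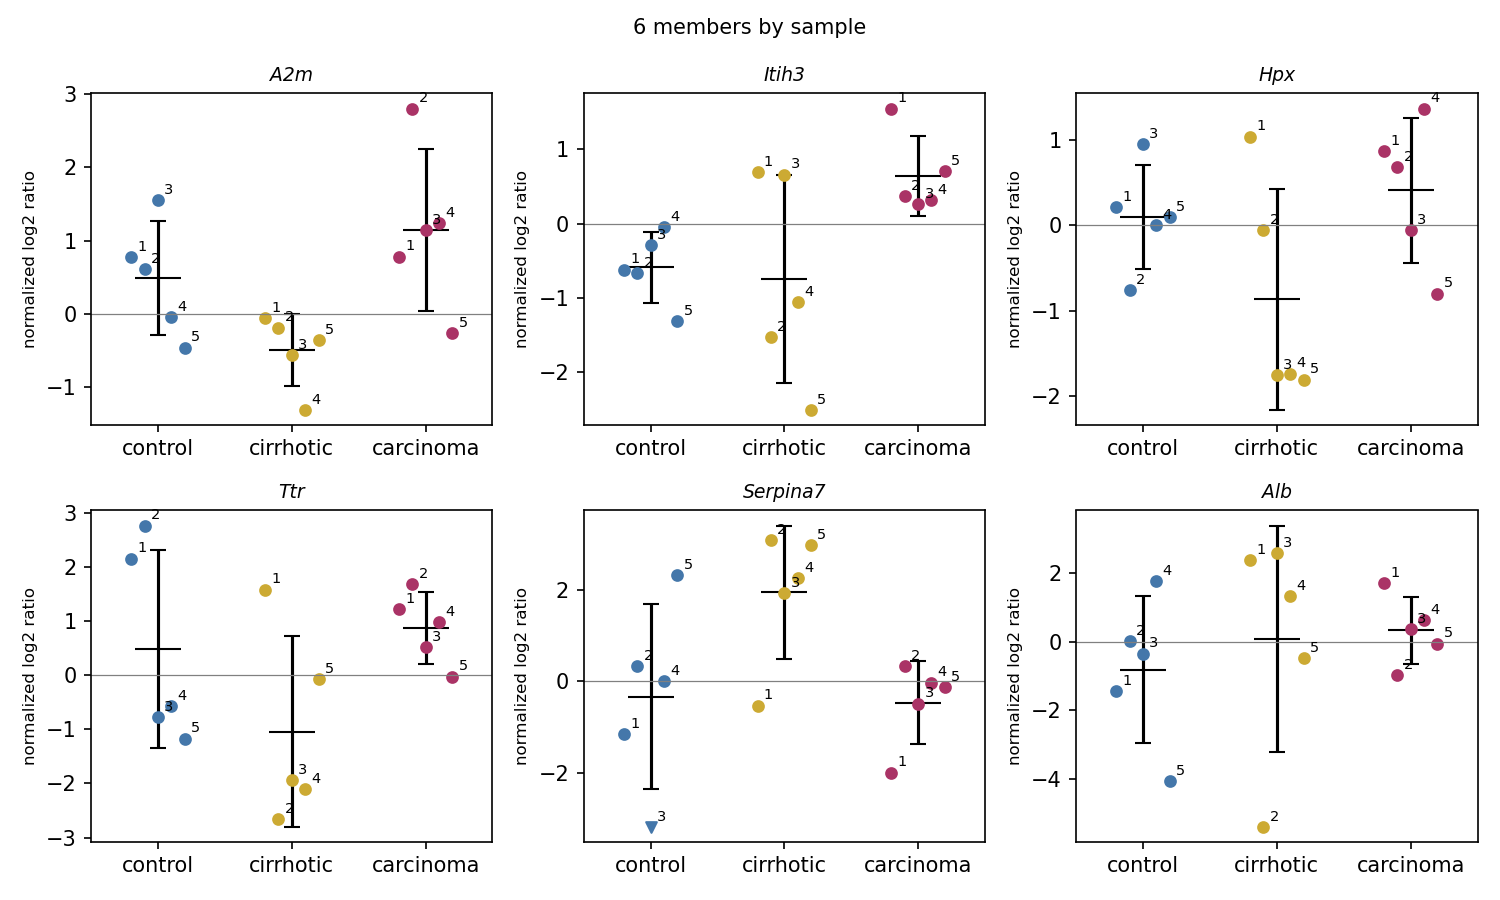
Normalized log2 ratio (vertical axis) of A2m, Itih3, Hpx, Ttr, Serpina7 and Alb in control, cirrhotic and carcinoma samples, with sample numbers beside the points, the mean as a horizontal bar and the SD as an error bar (n = 5). A triangle marks the value at the lower limit of the deposited ratios, Serpina7 in control sample 3. In Itih3 the 5 carcinoma samples lie above the 5 control samples, and in Alb control sample 5 and cirrhotic sample 2 lie at -4.07 and -5.40.

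The constitutive plasma protein genes were above control liver in the means of both diet groups in 6 of 7 cases, with a median difference of 0.90 in cirrhotic liver and 0.83 in carcinoma (1.02 and 0.98 after trend correction, again 6 of 7). Ttr in cirrhotic liver and Serpina7 in carcinoma were the exceptions. Over all probes 50.7% and 50.1% were above control. Leaving out control sample 5 lowered the carcinoma median to 0.49, and the cirrhotic median was 0.25 without cirrhotic sample 1 and 1.39 without cirrhotic sample 2. Carcinoma minus cirrhotic liver had a median of 0.31 with 5 of 7 above 0 (0.19 after trend correction), but -0.26 without cirrhotic sample 2 and 0.83 without cirrhotic sample 1. None of these genes passed the adjusted threshold, and the values below show how far single samples carried the means.

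Alb, albumin, ranged over 7.98 on the log2 scale across the 15 samples. The ratios of Alb were -1.44, 0.02, -0.35, 1.75 and -4.07 in control samples, 2.38, -5.40, 2.58, 1.33 and -0.48 in cirrhotic samples, and 1.69, -0.99, 0.37, 0.63 and -0.06 in carcinoma samples. Control sample 5 and cirrhotic sample 2 were far below the rest, and carcinoma samples stayed within a narrower band. Means were -0.82 ± 2.15 in control, 0.08 ± 3.30 in cirrhotic and 0.33 ± 0.98 in carcinoma samples (SD, n = 5 each). The difference from control was 1.15 for carcinoma (-1.20 to 3.50) and 0.90 for cirrhotic liver (-1.45 to 3.25). Without cirrhotic sample 2 the cirrhotic difference was 2.32 and the difference of carcinoma from cirrhotic liver turned from 0.24 to -1.15. Without control sample 5 the cirrhotic difference from control was 0.11 and that of carcinoma 0.33.

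Ttr, transthyretin, the carrier of thyroxine and of the retinol binding protein, was higher in carcinoma than in cirrhotic liver by 1.91 (3.77-fold, 0.29 to 3.54, adjusted p = 0.308). Its ratios came to 2.15, 2.76, -0.77, -0.57 and -1.17 in control samples, 1.58, -2.66, -1.94, -2.11 and -0.08 in cirrhotic samples, and 1.22, 1.68, 0.51, 0.98 and -0.03 in carcinoma samples. Cirrhotic samples 2, 3 and 4 were the lowest of the 15, cirrhotic sample 1 lay among the carcinoma samples, and control samples 1 and 2 were the highest of all. The trend-corrected difference was 1.32 (-0.25 to 2.90). Cirrhotic minus control liver was -1.52 (-3.15 to 0.10), which became -0.35 with the correction and -0.93 without control sample 2.

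Serpina7, thyroxine-binding globulin, which also carries thyroxine, ran the opposite way to Ttr. The ratios of Serpina7 were -1.16, 0.33, -3.19, 0.00 and 2.33 in control samples, -0.53, 3.09, 1.94, 2.26 and 2.98 in cirrhotic samples, and -2.0, 0.33, -0.49, -0.03 and -0.13 in carcinoma samples. The value of control sample 3 was at the lower limit of the deposited ratios, so that ratio is a bound. Cirrhotic samples 2 to 5 were high and cirrhotic sample 1 lay within the carcinoma range, while control sample 5 lay within the cirrhotic range. Cirrhotic liver exceeded control by 2.29 (4.88-fold, 0.54 to 4.03, adjusted p = 0.413), and by 1.57 without control sample 3. Carcinoma minus cirrhotic liver was -2.41 (5.32-fold lower, -4.16 to -0.67, adjusted p = 0.25). After trend correction these were 1.42 (-0.44 to 3.28) and -1.58 (-3.44 to 0.28), so both intervals then held 0.

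Ahsg, fetuin-A, which keeps calcium phosphate soluble in plasma, had the largest mean excess of carcinoma over control, 1.52 (2.86-fold, -0.41 to 3.44, adjusted p = 0.724). Ahsg showed -0.03, -1.23, 0.10, -1.33 and -2.0 in control samples, 2.83, -2.83, 0.74, 1.53 and -1.98 in cirrhotic samples, and 2.26, 0.49, -2.15, -0.23 and 2.72 in carcinoma samples. Carcinoma samples 1 and 5 and cirrhotic sample 1 were high, and carcinoma sample 3 lay at the bottom with cirrhotic sample 2. The excess was 0.97 without carcinoma sample 5 and 2.21 without carcinoma sample 3. Trend correction left the difference from control at 1.53 and moved that from cirrhotic liver from 0.56 to 1.34 (-0.51 to 3.18), while without cirrhotic sample 2 the latter was -0.16.

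Tf, transferrin, the iron carrier, exceeded control in carcinoma by 1.29 (-0.98 to 3.56), and by 0.55 without control sample 4. Tf gave ratios of 0.12, -0.35, 0.01, -4.33 and -1.94 in control samples, 1.11, -3.04, -3.09, 1.65 and -0.75 in cirrhotic samples, and 0.40, -1.60, 0.41, 0.14 and 0.61 in carcinoma samples. Control samples 4 and 5, cirrhotic samples 2 and 3 and carcinoma sample 2 were low. Cirrhotic minus control was 0.47, or 1.08 after trend correction, with a sign that turned when control sample 4, cirrhotic sample 1 or cirrhotic sample 4 was left out. Gc, the vitamin D carrier, ranged from -1.91 to 2.56 over all samples. Serpina4, the kallikrein inhibitor kallistatin, ranged from -1.24 to 2.76.

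Set against each other, the acute phase and the constitutive genes showed no order of the tissues beyond the spread between samples. Of the 7 constitutive genes, Alb, Ahsg, Tf and Ttr are also negative acute phase genes, whose synthesis goes down in inflammation. In part the contrast thus set positive against negative acute phase genes. The 4 had a median difference of 1.22 for carcinoma minus control and 0.69 for carcinoma minus cirrhotic liver, each with 4 of 4 above 0. For cirrhotic minus control liver it was 0.69, with 3 of 4 above 0. Trend-corrected medians were 1.29, 0.78 and 0.63. For each sample the mean of the 7 constitutive genes was subtracted from the mean of the 13 acute phase genes. This gave -0.04, -0.27, 0.86, 0.24 and 0.71 in control samples, -0.96, 1.24, -0.37, -1.57 and -0.58 in cirrhotic samples, and -0.24, 0.66, -0.02, -0.11 and -0.50 in carcinoma samples. All 3 groups overlapped, and cirrhotic liver held both the highest and the lowest sample. The mean was 0.30 ± 0.48 in control, -0.45 ± 1.05 in cirrhotic and -0.04 ± 0.43 in carcinoma samples (SD, n = 5 each). After trend correction the means were 0.23 ± 0.47, -0.28 ± 1.01 and -0.09 ± 0.41. The difference of cirrhotic from control liver, -0.75, was -0.47 without cirrhotic sample 4 and -1.19 without cirrhotic sample 2. No p-value is given, because the genes of both lists were chosen with earlier results of these data known.

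**Figure D3:**
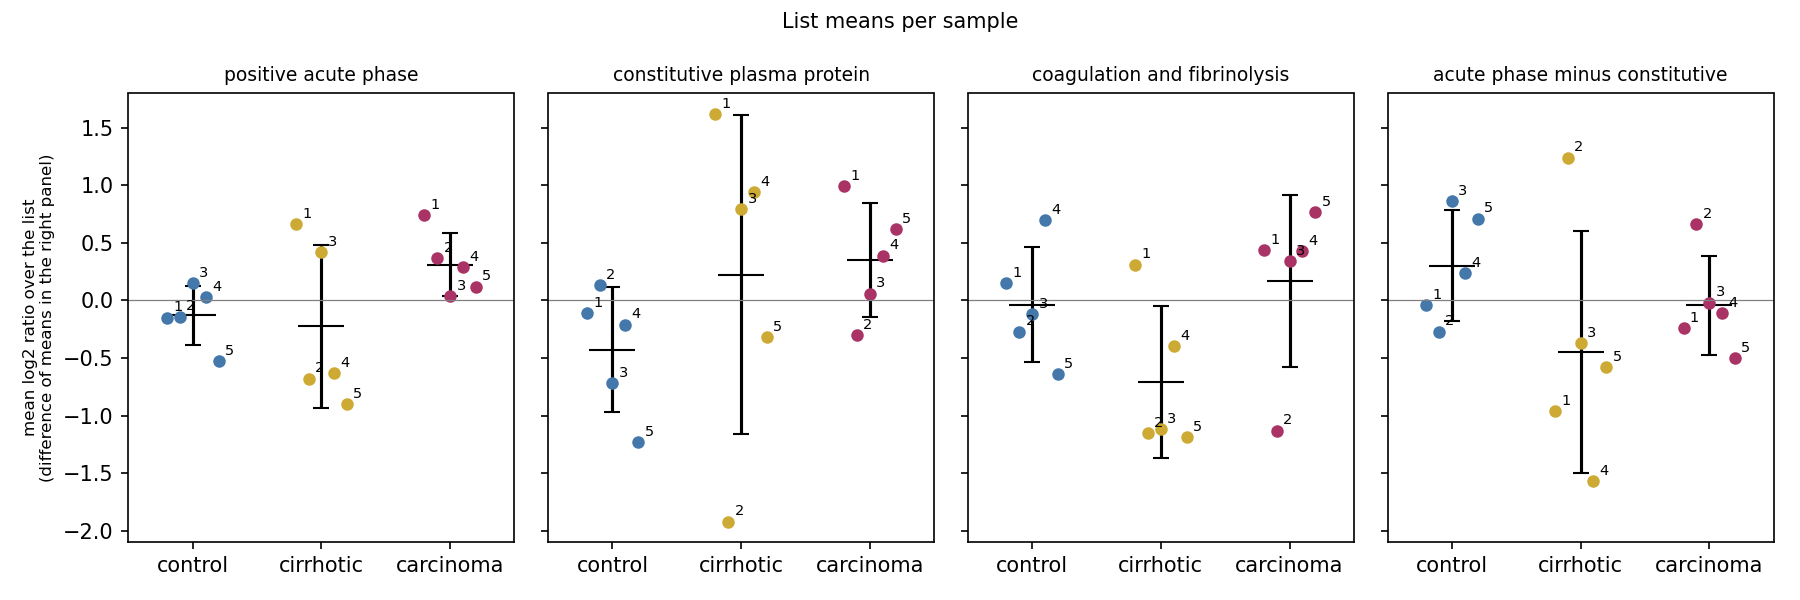
Mean log2 ratio over the 13 acute phase, 7 constitutive and 7 coagulation genes, and the acute phase mean minus the constitutive mean (right panel), for each sample (points with sample numbers) by group, with the group mean as a bar and the SD as an error bar (n = 5). The constitutive means of cirrhotic liver run from -1.92 to 1.62, while those of carcinoma run from -0.30 to 0.99.

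The constitutive genes spread more widely between samples of the same tissue than the acute phase genes did. This was seen in the plots and then counted, so it is a description without a test. The pooled SD within groups had a median of 1.54 over the 7 constitutive genes, 0.91 over the 13 acute phase genes, 0.90 over the 7 coagulation genes and 0.97 over all probes. All 7 constitutive genes were above the all-probe median and 5 were above its 90th percentile of 1.47. Of the acute phase genes 5 of 13 were above the median and 1, Serpina1, was above the 90th percentile. In all, 9 of the 36 members were above that percentile, among them Serpina5 (SD 1.78), Mbl2 (SD 1.57) and Mug1l1 (SD 1.51). Albumin, at 2.34, stood at percentile 99.7 of all probes, Ahsg at 97.9 (SD 1.86) and Tf at 96.8 (SD 1.77). The 7 of 7 count was the same with the deposited values, with median scaling, with a floor, with a pseudocount, with trend correction and with each sample left out in turn. Albumin itself stood at percentile 93.8 with the deposited values and with median scaling, and at 95.9 with the floor. Without control sample 5 and cirrhotic sample 2 the SD of albumin was 1.25, at percentile 76.5, and the count was still 7 of 7.

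The spread of the constitutive genes was narrower in carcinoma than in cirrhotic liver. The SD of all 7 constitutive genes was lower in carcinoma than in cirrhotic liver, with medians of 0.98 in carcinoma and 1.95 in cirrhotic samples, where 48.6% of all probes had a lower SD in carcinoma. The count was 10 of 13 among acute phase genes and 4 of 7 among coagulation genes. For the constitutive genes it was 7 of 7 with trend correction, and 6 of 7 without cirrhotic sample 1. Against control liver the SD in carcinoma was lower for 5 of 7 constitutive genes (50.4% of all probes), and higher for Ahsg (1.97 against 0.90) and Serpina4 (1.25 against 0.62). The median SD in control liver was 1.83, but 1.01 without control sample 4, close to that of carcinoma.

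**Figure D4:**
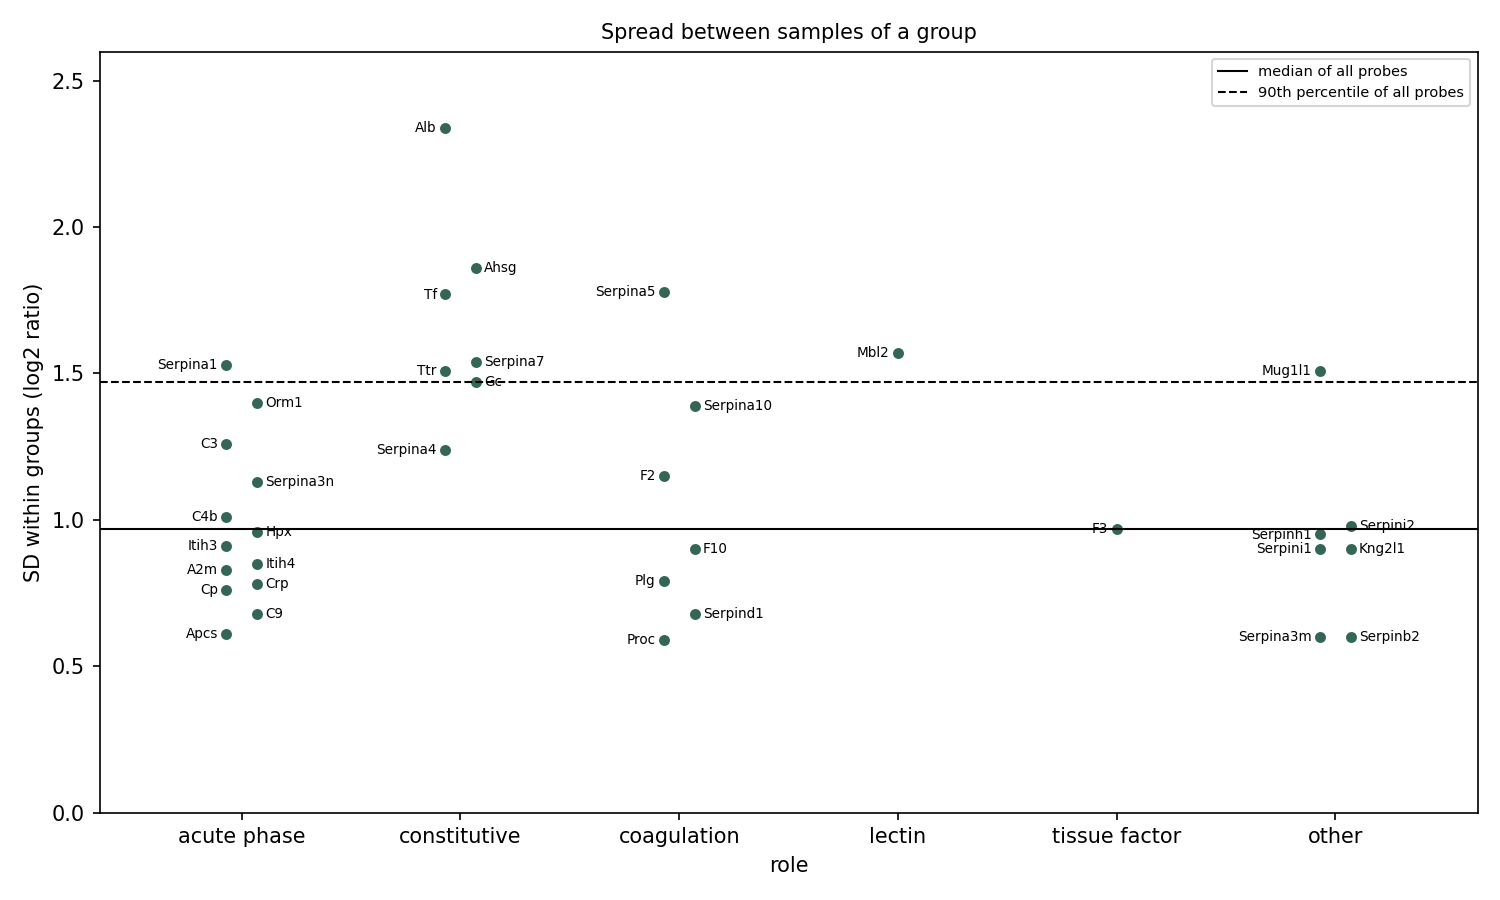
Pooled SD within groups on the log2 scale (vertical axis) of each of the 36 genes (points), by role (horizontal axis), with the median (solid line, 0.97) and 90th percentile (dashed line, 1.47) of all probes. All 7 constitutive genes lie above the solid line, against 5 of 13 acute phase genes and 3 of 7 coagulation genes.

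Single samples were extreme for several members at once. Cirrhotic sample 2 was the lowest of the 15 samples for 7 of the 36 members (Ahsg, Alb, F10, Gc, Serpina1, Serpind1 and Ttr), 19.4% against 5.54% of all probes, and 4 of these are constitutive genes. Cirrhotic sample 1 was the highest for 6 members (Cp, Mug1l1, Serpina1, Ahsg, Crp and Serpina3n), 16.7% against 6.41%, of which Ahsg alone is constitutive. Cirrhotic sample 5 was the lowest for 5 (F2, C3, Itih3, Kng2l1 and Hpx), 13.9% against 7.21%, none of them constitutive. The constitutive mean was -1.92 in cirrhotic sample 2, -1.23 in control sample 5 and 1.62 in cirrhotic sample 1. Of 16 hepatocyte markers 14 were measured, and the mean of the 12 other than Alb and Ttr was -0.15, -0.29 and 0.44 in those samples, which were picked for their constitutive means. In tissue RNA, fewer cells of a type and less RNA per cell cannot be told apart. Control sample 1 and cirrhotic sample 1 held 229 and 209 of the 657 values at the lower limit of the deposited ratios, and only 2 of these 657 belonged to members.

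The coagulation and fibrinolysis genes, the third of the roles, all had a higher mean in carcinoma than in cirrhotic liver, and none passed the threshold. The median of the 7 differences was 0.85, from 0.49 to 1.59, beside a median of -0.02 and 49.3% above 0 over all probes. Proc, Serpind1 and F10 lie among the probes numbered from 2800 to 3199, where the all-probe median of this difference was 0.41. Plg lies among those from 3200 to 3599, where it was 0.49. After trend correction the median of the 7 genes was 0.40, with 7 of 7 above 0, from 0.05 for Proc to 1.43 for Serpina5. Cirrhotic liver was below control in 6 of 7 genes, with a median of -0.60 (trend-corrected -0.21, 5 of 7 below). Carcinoma minus control had a median of 0.24 (trend-corrected 0.42), but -0.03 without control sample 5.

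F2, prothrombin, followed single samples. The F2 ratios were -0.33, 0.17, -0.76, 0.07 and -0.73 in control samples, 1.66, -0.66, 0.15, 0.39 and -2.22 in cirrhotic samples, and 2.0, -0.07, -0.78, -0.85 and 1.5 in carcinoma samples. Cirrhotic sample 1 and carcinoma samples 1 and 5 were high and cirrhotic sample 5 was low. Carcinoma minus control was 0.67 (-0.68 to 2.02), or 0.25 without carcinoma sample 1, and cirrhotic minus control was 0.18, or -0.19 after trend correction. F10, the factor that activates prothrombin, had its highest value, 1.93, in carcinoma sample 5, and its carcinoma minus cirrhotic difference was 0.85 (-0.32 to 2.01), or 0.33 after trend correction.

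Plg, plasminogen, the precursor of the enzyme that dissolves fibrin, was lowest in cirrhotic samples 3 and 4. Plg values were 0.08, 0.27, -0.19, 1.08 and -1.01 in control samples, -0.01, -0.77, -1.88, -1.42 and 0.77 in cirrhotic samples, and 0.17, -0.17, 0.74, 0.56 and -0.09 in carcinoma samples. Carcinoma minus cirrhotic liver was 0.90 (-0.23 to 2.03), or 0.40 with trend correction. Proc, protein C, an anticoagulant protease, was below 0 in every cirrhotic sample. Proc values were 0.23, -0.35, 0.01, 1.23 and 0.81 in control samples, -0.13, -0.06, -0.79, -0.94 and -0.58 in cirrhotic samples, and 0.09, -1.16, 0.57, 0.54 and -0.03 in carcinoma samples. The cirrhotic range lay within the range of the carcinoma samples and overlapped that of the controls, and cirrhotic minus control was -0.89 (-1.87 to 0.10), or -0.34 after correction.

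Serpina5, the protein C inhibitor, had the lowest difference of cirrhotic from control liver, -1.87 (3.65-fold lower, -4.42 to 0.69, adjusted p = 0.611). Serpina5 ran at 0.97, -1.53, 0.85, 1.04 and -2.08 in control samples, 0.63, -3.06, -4.54, -0.01 and -3.12 in cirrhotic samples, and 0.07, -3.09, 0.30, -0.02 and 0.57 in carcinoma samples. Cirrhotic samples 2, 3 and 5 and carcinoma sample 2 were very low, and the remaining samples of those groups lay near the controls. The value was -1.24 without cirrhotic sample 3 and -1.96 after trend correction. Carcinoma minus cirrhotic liver was 1.59 (-0.97 to 4.14), or 0.97 without cirrhotic sample 3. Serpind1, heparin cofactor II, had a difference of 0.99 in that comparison (-0.08 to 2.06), or 0.63 after trend correction. For Serpina10, which inhibits factor Xa, it was 0.84 (-0.73 to 2.40), or 0.31 after trend correction.

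Mbl2, a mannose-binding lectin that starts the lectin pathway of complement, had the second lowest difference of carcinoma from cirrhotic liver, -1.61 (-3.29 to 0.07). The Mbl2 samples stood at 0.67, 0.51, -0.72, -0.42 and -0.75 in control samples, 1.46, 1.25, 1.76, -2.06 and 1.65 in cirrhotic samples, and 1.18, -0.02, -0.30, -0.51 and -4.33 in carcinoma samples. Cirrhotic samples other than sample 4 lay above every control and every carcinoma sample, and carcinoma sample 5 was far below the rest. Without carcinoma sample 5 the difference was -0.69, without cirrhotic sample 4 it was -2.34, and with trend correction -0.76 (-2.70 to 1.18). F3, tissue factor, which is made by cells outside the blood stream and starts clotting, ranged from -1.99 to 1.20, with a carcinoma minus cirrhotic difference of -0.79 (-2.12 to 0.54), or -0.20 after trend correction.

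Among the remaining members, Serpinh1, the collagen chaperone of the endoplasmic reticulum, was above control in cirrhotic liver by 1.52 (2.86-fold, 0.18 to 2.86, adjusted p = 0.462). Serpinh1 read 0.40, -2.73, 0.15, -1.69 and -0.86 in control samples, 0.40, 0.87, 0.20, 1.32 and 0.07 in cirrhotic samples, and -0.41, -0.51, -1.95, -0.76 and 0.43 in carcinoma samples. Control samples 2 and 4 were low and control samples 1 and 3 lay within the cirrhotic range. The difference was 1.07 without control sample 2 and 0.76 with trend correction (-0.33 to 1.85). Serpinh1 is made by collagen-producing cells, and 13 of 15 stellate cell and myofibroblast markers were measured. Their mean was 0.00 ± 0.17 in control, -0.36 ± 0.12 in cirrhotic and 0.09 ± 0.31 in carcinoma samples (SD, n = 5 each), and -0.05 ± 0.23, -0.22 ± 0.14 and 0.07 ± 0.23 after trend correction. In both, the mean of these markers was lowest in cirrhotic liver, where the mean of Serpinh1 was highest. Whether the amount of collagen-producing cells had a part in the difference of Serpinh1 was not tested.

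Serpini1, neuroserpin, had the lowest difference of carcinoma from control, -0.94 (-2.14 to 0.25, adjusted p = 0.724), and -1.13 after trend correction (-2.03 to -0.24, adjusted p = 0.56). Serpini1 was measured at 0.01, 1.97, -0.65, 0.59 and -0.14 in control samples, 0.42, -0.08, -0.09, -1.47 and 0.38 in cirrhotic samples, and -1.38, -0.90, 0.09, 0.62 and -1.38 in carcinoma samples. Carcinoma samples 1, 2 and 5 were low and samples 3 and 4 lay within the control range, and the difference was -0.53 without control sample 2. Serpini2, a serpin named from the pancreas, had differences of -0.75 from control and -0.82 from cirrhotic liver in carcinoma. Serpini2 lay at -0.60, 0.29, -1.53, 0.06 and 0.62 in control samples, -1.37, -0.06, -0.01, 0.04 and 0.61 in cirrhotic samples, and -2.80, 0.06, -0.54, 0.14 and -1.76 in carcinoma samples. Carcinoma samples 1 and 5 were the lowest of the 15. Without carcinoma sample 1 these differences were -0.29 and -0.37.

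The members still to be named had no difference with an interval away from 0. Serpinb2, the plasminogen activator inhibitor of macrophages, had a cirrhotic minus control difference of 0.92 (-0.07 to 1.91), or 0.47 with correction. Kng2l1, a kininogen-like gene, had a carcinoma minus cirrhotic difference of 0.94 (-0.26 to 2.13), or 0.41. Mug1l1, a relative of alpha-2-macroglobulin, ranged from -3.36 to 2.44 and Serpina3m from -0.76 to 1.75. Kininogens, the Serpina3 group and the A2m and Mug family each hold near-identical copies in the rat, so values of these probes may mix genes.

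**Figure D5:**
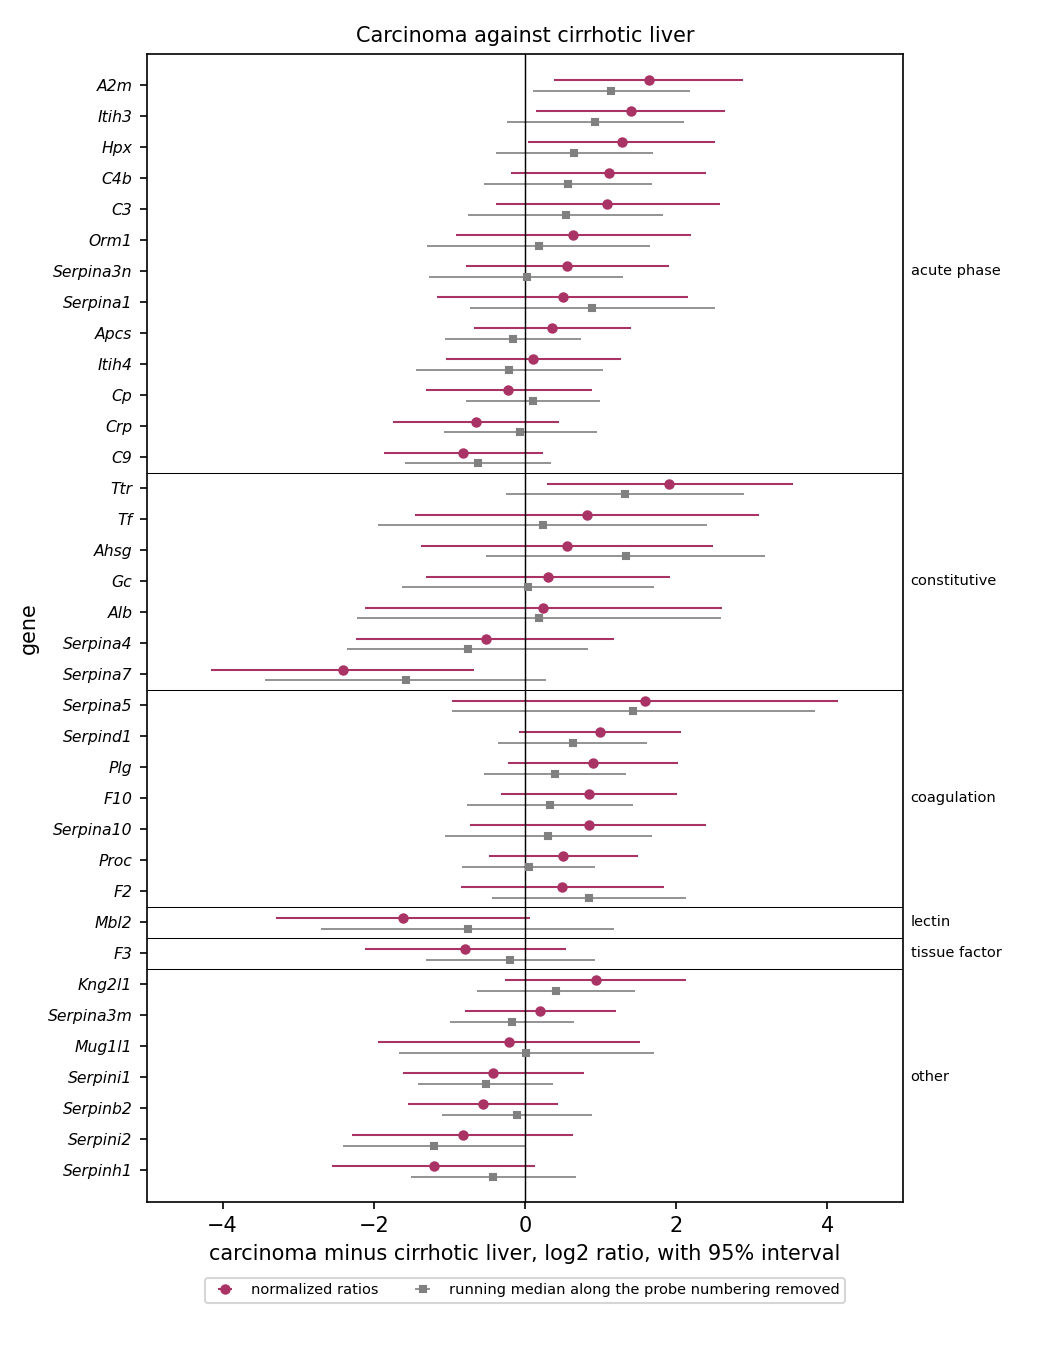
Difference of carcinoma from cirrhotic liver on the log2 scale with its 95% interval (horizontal axis) for each of the 36 genes (rows, by role), from normalized ratios (filled circles) and after trend correction (grey squares). All 7 coagulation genes lie above 0 in both, the widest intervals belong to Serpina5, Alb and Tf, and only A2m has an interval above 0 in both.

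The means of marker lists for other cells were set side by side without a test, and no marker passed the adjusted threshold. Of 13 macrophage markers 4 were measured, with a mean of 0.48 ± 0.57 in carcinoma, -0.72 ± 0.88 in cirrhotic and -0.32 ± 1.26 in control samples (SD, n = 5 each). The tissues overlapped in this mean, and after trend correction it was 0.41, -0.56 and -0.33. Of 12 endothelial markers 5 were measured, with a mean of -0.52 ± 0.76 in carcinoma, 0.41 ± 0.13 in cirrhotic and -0.20 ± 0.31 in control samples. Trend correction gave -0.41, 0.32 and -0.14. Of 11 bile duct and progenitor markers 6 were measured, with means of -0.39 ± 0.62, -0.18 ± 0.55 and 0.07 ± 0.56 in that order. Of 14 lymphocyte markers 7 were measured, with means of -0.18 ± 0.56, 0.31 ± 0.47 and -0.27 ± 0.40. The hepatocyte markers other than the members Alb and Ttr had means of -0.30 ± 0.75, 0.25 ± 0.30 and 0.11 ± 0.47 in that order, and -0.17 ± 0.59, 0.09 ± 0.29 and 0.16 ± 0.33 after trend correction. With Alb and Ttr included they were -0.17 ± 0.60, 0.14 ± 0.54 and 0.07 ± 0.48. Because every probe is centred on its own median, no level shows whether a marker is absent, and the labelled tissue could not be checked that way. The part of these shifts in the differences of the members was not tested.

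Of 28 genes of the cytokine pathways that drive the acute phase response, 22 were measured and none passed the adjusted threshold. Their median was -0.45 for carcinoma minus cirrhotic liver, with 6 of 22 above 0 (trend-corrected -0.18), 0.30 for cirrhotic minus control (trend-corrected -0.02) and 0.00 for carcinoma minus control. Il6, interleukin-6 itself, had a carcinoma minus control difference of -1.52 (-3.28 to 0.24). Nfkb1, a subunit of NF-kappaB, had a carcinoma minus cirrhotic difference of -1.94 (-3.43 to -0.46, adjusted p = 0.262), or -1.60 after correction (-2.95 to -0.25). Il1rn, the interleukin-1 receptor antagonist and itself an acute phase product, was below control in carcinoma without overlap, with a difference of -2.26 (-3.77 to -0.75, adjusted p = 0.489), or -2.05 with correction. Stat3, the transducer of the interleukin-6 signal, had differences from -0.55 to 0.64, or from -0.21 to 0.20 after correction.

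Of 13 liver transcription factors 11 were measured, and again none passed. Their median for carcinoma minus cirrhotic liver was 0.17, with 6 of 11 above 0 (trend-corrected 0.08, 6 of 11). Hnf4a, a nuclear receptor that hepatocytes need for many plasma protein genes, had a carcinoma minus cirrhotic difference of 1.54 (0.53 to 2.55, adjusted p = 0.234), and 0.97 after trend correction (0.21 to 1.74). Cebpa, which acts on the albumin promoter, had a difference of 1.87 in that comparison (0.19 to 3.55, adjusted p = 0.332), or 1.28 (-0.36 to 2.93). Foxa2, a forkhead factor of liver genes, went the other way, at -0.71 (-1.84 to 0.42), or -1.22 after correction (-2.24 to -0.19), Foxa1 was at -0.30, or -0.82, and Cebpb at -1.07, or -0.23. Cebpb, the C/EBP factor of the acute phase response, was above control in cirrhotic liver without overlap, by 1.98 (0.35 to 3.60, adjusted p = 0.421), or 1.03 with correction (-0.34 to 2.40). In the same comparison the acute phase genes had their median of -0.16, or 0.11 with correction. A link between Cebpb and these genes was not tested.

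Of 37 other plasma protein genes, 23 were measured and none passed. Apoe, the remnant apolipoprotein, had a carcinoma minus cirrhotic difference of 2.96 (1.5 to 4.42, adjusted p = 0.224), or 2.46 with trend correction (0.81 to 4.11). Apoa1, the main protein of high-density lipoprotein, was above control in cirrhotic liver by 2.35 (0.83 to 3.87, adjusted p = 0.315), or 1.93 (0.60 to 3.27). Apoa4 had a carcinoma minus cirrhotic difference of -2.24 (-3.80 to -0.69, adjusted p = 0.234), or -1.86 (-3.20 to -0.51). The median of the 23 genes was 0.34 for carcinoma minus cirrhotic liver and -0.25 for cirrhotic minus control, where the trend-corrected medians were 0.28 and 0.04. The genes named from these 3 lists were chosen after their values were seen.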

How the data were processed

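The deposited table holds 1 value per probe and array as a linear ratio: in the deposited values the median of each probe over the 15 arrays is 1, so the authors had scaled probes to their medians, with a lower limit of 0.01. No source used here gives the array type, dyes or earlier steps. Every column was used. Ratios were quantile-normalized with limma 3.58.1 in R 4.3.3, put on the log2 scale and fitted by limma's lmFit, followed by eBayes (trend on), all 15 samples in one model (12 residual degrees of freedom), two-sided, with Benjamini-Hochberg adjustment over 3757 probes. The design had been written for brightness values, so the quantile step was applied to ratios instead. Differences carry 95% intervals. The fit was tested on simulated data. The table has no levels or detection calls, and precision is limited by 5 arrays a group.

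Members and gene lists were chosen with earlier results of these data known. Named with all values were 12 measured anchor genes, in each comparison the 4 largest differences above and the 4 below 0, and genes without overlap. All 36 symbols matched RefSeq genes of the assembly GRCr8, and 31 had a promoter. Same-numbered samples were checked for pairing: the correlations of their deviations from group means ran from -0.34 to 0.387. Only for the samples numbered 1 were they above 0 in every comparison. These were 0.324 for cirrhotic with control, 0.191 for carcinoma with control and 0.387 for carcinoma with cirrhotic liver. After trend correction they were 0.342, 0.136 and 0.427, and the cause was not tested. These values cannot decide whether equal numbers mark paired samples, so pairing remains unknown and the main fit used none. Alternatives were the deposited values, median scaling, a pseudocount of 0.1, a floor at the 25th percentile, probes at the lower limit left out, subtraction of a running median over 101 probes, no mean-variance trend, only 2 groups in the fit, array weights, the replicate number as a block, other list memberships and samples left out. The mean of a gene's probes equals the probe here, since each member has 1 probe. Python 3.11.15, pandas 2.3.3 and matplotlib 3.10.9 were used for tables and figures.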

Additional observations from a re-analysis of the deposited data

Results flagged for a closer look

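In 7 of 120 groups of 5 values (36 members, the list means and their difference, in 3 tissues) 1 sample lay far from the other 4, with a gap of more than 0.71 of the group's range, where chance gives about 6. In Mbl2, cirrhotic sample 4 was at -2.06 against 1.25 to 1.76 in the others, a gap of 0.867 of the range. In Serpina5, carcinoma sample 2 was at -3.09 against -0.02 to 0.57 (0.84), and the same sample was the low one in Tf, at -1.60 against 0.14 to 0.61 (0.785), and in the mean of the coagulation genes, at -1.13 against 0.34 to 0.77 (0.773). The coagulation mean includes Serpina5. In Serpina4, control sample 4 was the high one, at 1.18 against -0.34 to -0.02 (0.789). In Serpini1, cirrhotic sample 4 was low, at -1.47 against -0.09 to 0.42 (0.729). In F10, carcinoma sample 5 was high, at 1.93 against -0.35 to 0.28 (0.727).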

How the results depend on the processing

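No member passed the adjusted threshold under any alternative run. The counts of members under an unadjusted p of 0.05 were small and moved. For cirrhotic against control liver the count of 2 became 0 with the running median removed, 1 with the replicate block and the running median removed, and 4 without control sample 1 and cirrhotic sample 1, and ran from 2 to 4 with single samples left out. For carcinoma against control the count of 0 became 1 without the mean-variance trend, with probes at the lower limit left out or with a pseudocount, 2 with median scaling, the floor, the running median removed or the deposited values, and 3 with only 2 groups fitted or with the block and the running median removed, and ran from 0 to 2 with single samples left out. For carcinoma against cirrhotic liver the count of 5 became 2 with median scaling, the deposited values or the block with the running median removed, and 1 with the running median removed, and ran from 3 to 6. With the replicate block alone the counts were 3, 0 and 6.

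The direction of some differences turned, and not all of these were small. In the main fit cirrhotic minus control was -0.98 for A2m and -0.71 for Plg. With the running median removed, and likewise with the block added to it, cirrhotic minus control became -0.10 for Cp, -0.19 for F2, 0.11 for C3, 0.06 for Plg, 0.71 for Orm1 and 0.04 for A2m, and carcinoma minus cirrhotic 0.11 for Cp. With array weights, cirrhotic minus control became -0.24 for F2 and -0.02 for Alb. Without control sample 1 and cirrhotic sample 1, F2 was -0.24 there and Cp 0.08 for carcinoma minus cirrhotic liver. The floor gave 0.05 for Mbl2 in carcinoma minus control and -0.64 for Alb in carcinoma minus cirrhotic liver, and the pseudocount -0.16 for Alb. With single samples left out, cirrhotic minus control ran from -0.88 to 0.21 for Orm1, -0.92 to 0.12 for C3, -0.30 to 1.06 for Tf and -0.25 to 0.70 for F2. Carcinoma minus control ran from -0.12 to 0.34 for Cp, -0.23 to 0.93 for Orm1, -1.11 to 0.23 for Mbl2, -0.07 to 0.46 for Plg and -0.04 to 0.96 for Ttr. Carcinoma minus cirrhotic ran from -1.15 to 0.86 for Alb, -0.46 to 0.08 for Cp, -0.16 to 1.26 for Ahsg and -0.03 to 0.89 for F2. The median of the acute phase genes in carcinoma minus control ran from 0.25 to 0.78, and the acute phase genes above the all-probe spread from 3 to 7. The causes were not tested. The block changed no other call. Serpina7 and C4b have no value with probes at the lower limit left out. The table gives no brightness or background, so dim probes could not be set apart.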
